A study of Mus musculus with 8 samples.

Results

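Genes of the mitochondrial ribosomal proteins were followed in vessels purified from mouse brain with or without enzymatic digestion of the basal lamina. A member was any gene whose array symbol began with Mrpl (large subunit) or Mrps (small subunit) followed by a number, with no other symbol on its transcript cluster, the array's probe set for a gene. This gave 71 genes of the 22180 with a single symbol. Where a gene had several clusters, the one with the highest mean over the 8 arrays stood for it. All 71 lay above a background floor of 4.68 (log2), set from olfactory and vomeronasal receptor genes, as did 16217 of the 22180 genes. Another 7 genes of the family, Mrpl30, Mrpl33, Mrpl41, Mrpl43, Mrpl44, Mrpl53 and Mrps6, share their cluster with another symbol and are not analysed here.

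The digested group held 4 arrays of vessels obtained by replacing mechanical homogenization of the brain with a warm incubation in DNAse I and Liberase DL. The undigested group held 4 arrays of vessels obtained mechanically. Vessels in both came from male C57Bl6 mice aged 2 months, and per the study's methods each library was made independently from vessels pooled from 4 mice. Test results below therefore rest on the spread among pools of mice. The groups thus differ in how the brain was dissociated as well as in what the enzymes removed. The comparison was designed to catch transcripts that leave with astrocyte endfeet, which sheath brain vessels.

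The mitochondrial ribosome translates the few proteins that mitochondrial DNA encodes, all of them core subunits of the respiratory chain and ATP synthase. Its RNAs are mitochondrial, but every one of its proteins is encoded in the nucleus, made in the cytosol and imported. Part of these proteins have counterparts in bacterial ribosomes and the rest were added in the mitochondrial lineage. Brain endothelium and the choroid plexus epithelium are both known as tissues rich in mitochondria.

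The arrays held vessel RNA, with all 37 general endothelial markers above the floor (mean log2 level 9.31 to 9.60 on digested arrays and 9.83 to 10.16 on undigested arrays), but also RNA of other cells. The choroid plexus epithelium markers, all 20 above the floor, had a summed linear level of 32632 to 42777 on digested arrays and 18490 to 27216 on undigested arrays, and 15 of them were raised, with a median difference of 1.32. Of the astrocyte markers, 17 of 20 were lowered (median difference -1.28; summed linear level 4562 to 5442 on digested and 8617 to 11380 on undigested arrays), and of the endothelial markers 19 of 37 were lowered and 0 raised by limma (median difference -0.43). Smooth muscle markers had a median difference of 0.59 (3 of 15 raised, 1 lowered). Neuron markers had 0.34 (3 of 13 raised) and oligodendrocyte markers 0.23 (6 of 14 raised, 1 lowered). Pericyte markers had -0.84 (9 of 13 lowered) and microglia markers -0.41 (6 of 13 lowered). Motile cilia markers had -0.67 (13 of 23 lowered, 3 raised). Of all genes tested, 14.4% were raised and 9.04% lowered. These lists differed between the same groups as the members, and their part in the differences of the members was not tested. In such bulk RNA, fewer cells of a type and less RNA per cell cannot be told apart.

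The members' promoters were searched for 3 cores known from nuclear genes for mitochondrial proteins, each of which lay in a minority of them, and for 3 general motifs. RefSeq promoters (assembly GRCm38.p6, 250 bases before to 50 after the start) matched 62 of the 71 members, on 16 chromosomes, and 12556 of the genes above the floor. Such nuclear genes are known for promoters bound by NRF1, by GABP, an ETS factor, and by YY1. The ETS core CCGGAAG, searched on both strands like every motif here, lay in 37.1% of the members' promoters and in 15.8% of all. For the NRF1 core GCGCATGC the shares were 11.3% of members and 5.05% of all, and for the YY1 core AAGATGGC they were 19.4% of members and 4.37% of all. The other motifs searched lay in a smaller share of members than of all. The GC box GGGCGG lay in 51.6% of members and 61.9% of all, CCAAT in 38.7% and 41.5%, and TATAAA in 8.06% and 10.1%. A match is a description of the letters and not a bound site. To show these cores in place, the 100 bases before the start are given for chosen members, on their own strand with the core in capitals. The choice was limited to members with 1 promoter entry and no other gene starting upstream within 1000 bp on the opposite strand. Among these, the most raised member with each core there is given: ETS (Mrpl58), NRF1 (Mrpl17) and YY1 (Mrpl36, where the core reads as its reverse complement). Mrpl3 follows, a member with an ETS core and hardly any difference (0.03). These stretches lie at chr11:115403652-115403751 (+), chr7:105811088-105811187 (-), chr13:73330909-73331008 (+) and chr9:105053168-105053267 (+).
Mrpl58: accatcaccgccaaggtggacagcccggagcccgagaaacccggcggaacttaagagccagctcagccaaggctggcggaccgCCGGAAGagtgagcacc
Mrpl17: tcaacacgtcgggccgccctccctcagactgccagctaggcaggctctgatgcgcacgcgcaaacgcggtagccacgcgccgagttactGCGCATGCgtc
Mrpl36: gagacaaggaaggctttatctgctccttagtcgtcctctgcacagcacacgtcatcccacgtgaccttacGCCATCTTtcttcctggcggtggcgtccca
Mrpl3: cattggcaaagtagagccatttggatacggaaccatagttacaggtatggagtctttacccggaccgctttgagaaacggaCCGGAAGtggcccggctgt
The cores began 17, 11, 30 and 19 bases before the start, in the order printed. Of these 4, the differences of Mrpl17 and Mrpl36 were 0.31 and 0.30, with calls that turned on single arrays. That of Mrpl17 was lost without undigested array 1, 3 or 4 or digested array 1, 3 or 4 (limma adjusted p up to 0.083), and that of Mrpl36 without any one undigested array or digested array 1, 3 or 4 (up to 0.11).

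Members with a core were found among the raised and among the uncalled genes. The ETS core lay in 41.9% of the 31 raised members with a promoter and in 32.3% of the 31 that were not called. The NRF1 core lay in 9.68% of the raised and 12.9% of the uncalled, and the YY1 core in 22.6% of the raised and 16.1% of the uncalled. With 31 promoters a side these shares rest on 3 to 13 promoters, and no test was made of them.

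The digested arrays gave higher values for most members. Of the 71, 37 were raised, 0 were lowered and 34 were not called (limma, Benjamini-Hochberg adjusted p under 0.05 over all clusters tested). Over all genes tested, 14.4% were raised and 9.04% lowered. At an unadjusted p of 0.05, 45 members were higher and 1 was lower by limma, with 22.1% of all genes higher and 14.8% lower. By the methods' t-test 46 members were higher and 0 lower, with 22.4% of all genes higher and 14.8% lower. The median difference, digested minus undigested on the log2 scale, was 0.31 over the members and 0.02 over all genes, with the middle 50% of members between 0.16 and 0.49. Differences were positive for 68 members and negative for 3. The changes were small: none reached 2-fold, the largest being 1.94-fold. In 43 members all 4 digested arrays lay above all 4 undigested arrays, against 17.8% of all genes, and in 1 member, Mrps14, all lay below, against 11.9% of all genes.

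**Figure D1:**
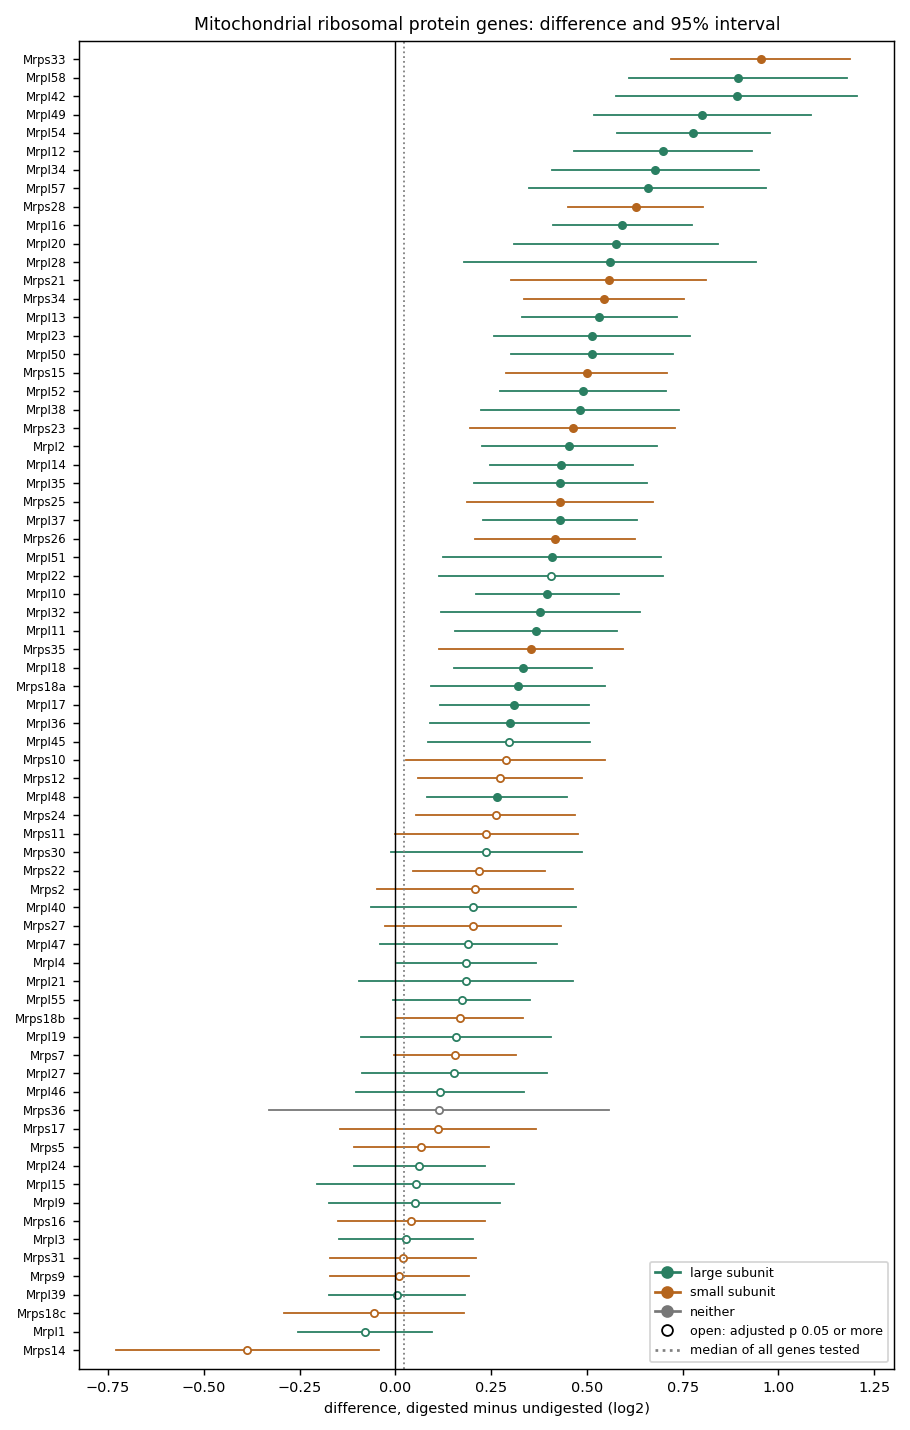
Difference between digested and undigested vessels (log2, x axis) for each of the 71 members with its 95% interval; filled points passed an adjusted p of 0.05 and colours give the subunit. Points run from 0.95 for Mrps33 to -0.39 for Mrps14, with 68 right of 0.

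The shift could be read array by array. Against each gene's own mean over the 8 arrays, 61, 51, 62 and 67 of the 71 members were higher on digested arrays 1 to 4, and 4, 13, 17 and 9 on undigested arrays 1 to 4. The median deviation was 0.14, 0.09, 0.15 and 0.26 on the digested arrays and -0.23, -0.21, -0.12 and -0.14 on the undigested arrays. Every digested array thus stood above every undigested array, with digested array 4 the highest and undigested arrays 3 and 4 nearer to the digested ones than arrays 1 and 2. The choroid plexus list also was highest on digested array 4 and lowest of its group on digested array 2, and higher on undigested arrays 3 and 4 than on 1 and 2, with mean log2 levels of 10.18, 9.91, 10.44 and 10.50 on the digested arrays and 8.73, 8.62, 9.50 and 9.49 on the undigested arrays. This order was not particular to choroid. The motile cilia list, lower on the digested arrays, read 6.82, 6.58, 6.99 and 7.28 there and 7.47, 7.55, 8.02 and 7.94 on undigested arrays. The astrocyte list too was higher on undigested arrays 3 and 4 (8.72 and 8.70) than on 1 and 2 (8.34 and 8.35). What sets the order was not tested. Undigested arrays 3 and 4 were nearer to the digested arrays in choroid level but farther from them in astrocyte and motile cilia level. Against undigested arrays 3 and 4 alone the members' median difference was 0.32, but 12 members were raised, with 4.43% of all genes. Against undigested arrays 1 and 2 alone the median was 0.36 and 31 members were raised, with 12.5% of all genes.

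**Figure D2:**
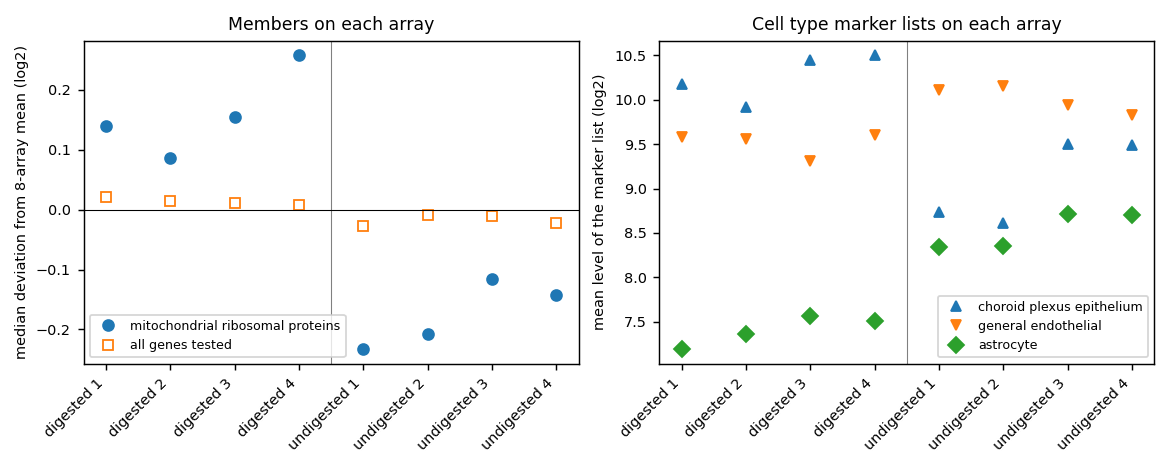
Left, the median deviation of the 71 members and of all genes tested from each gene's mean over 8 arrays (log2), by array; right, the mean log2 level of 3 marker lists by array, digested arrays left of the line. The members lie between 0.09 and 0.26 on digested arrays and between -0.23 and -0.12 on undigested arrays, while the choroid plexus list is high and the astrocyte list low on the digested arrays.

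The most raised member was Mrps33, a protein of the small subunit found only in mitochondrial ribosomes. It read 7.52, 7.35, 7.79 and 7.66 on the digested arrays and 6.64, 6.54, 6.68 and 6.64 on the undigested arrays (log2). The groups did not overlap, and the difference of 0.95 ± 0.10 (SE, n = 4 a group) had a limma adjusted p of 0.00087. Mrpl58, the large subunit's peptidyl-tRNA hydrolase, which frees stalled ribosomes, read 8.68, 8.49, 8.85 and 8.91 on digested arrays and 7.81, 7.70, 8.11 and 7.72 on undigested arrays. Undigested array 3 was the highest of its group and still lay below every digested array, for a difference of 0.89 ± 0.13 (limma adjusted p 0.0021). Mrpl42 of the large subunit read 7.08, 7.11, 7.17 and 7.57 on digested arrays and 6.18, 6.17, 6.59 and 6.43 on undigested arrays. Digested array 4 was highest here, and the difference was 0.89 ± 0.14 (limma adjusted p 0.0033).

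Mrpl49 read 7.73, 7.81, 7.85 and 7.95 on digested arrays and 6.67, 7.11, 7.25 and 7.11 on undigested arrays. Its low undigested array 1 widened the spread in that group, and the difference was 0.80 ± 0.13 (limma adjusted p 0.0032). Mrpl54 read 7.54, 7.26, 7.46 and 7.47 on digested arrays and 6.58, 6.57, 6.74 and 6.71 on undigested arrays, a difference of 0.78 ± 0.09 with no overlap. The next members in order were Mrpl12 (0.70), Mrpl34 (0.68), Mrpl57 (0.66), Mrps28 (0.63) and Mrpl16 (0.59), the last a protein close to the peptidyl transferase centre. In all 10 of these the groups did not overlap and the call held in each fit that left out 1 array. With both undigested arrays 1 and 2 left out, Mrpl34 (limma adjusted p 0.059) and Mrpl57 (0.064) lost their calls and the other 8 kept theirs. Mrpl57 came nearest to overlap, with its lowest digested array at 6.16 and its highest undigested array at 6.02.

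**Figure D3:**
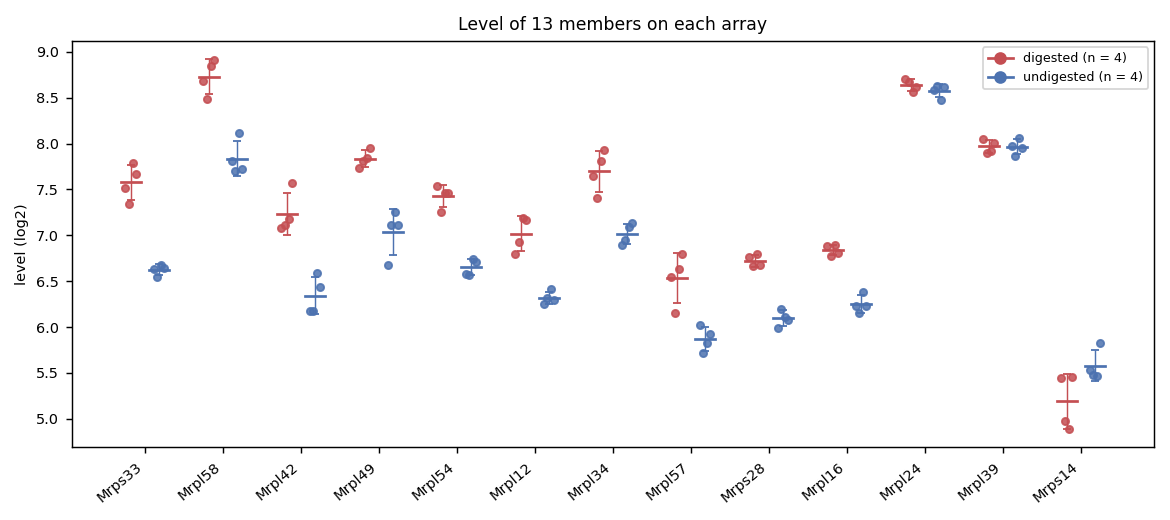
Level (log2) on each array of the 10 most raised members and of Mrpl24, Mrpl39 and Mrps14, digested left of undigested for each gene; points are arrays, lines the mean and its SD (n = 4). The first 10 show no overlap, Mrpl24 and Mrpl39 overlap, and Mrps14 is lower in the digested group.

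By place in the particle, 28 of 45 large subunit members were raised, with a median difference of 0.38, and 9 of 25 small subunit members, with a median of 0.24. Mrps36, now known as a subunit of the 2-oxoglutarate dehydrogenase complex rather than of the ribosome, belonged to neither (0.11, adjusted p 0.73). Origin was taken from the unified protein names. Of the members named as mitochondrial only, 18 of 27 were raised (median 0.42), and of those named for a bacterial counterpart, 19 of 42 (median 0.28). By name Mrps18a and Mrps18b fell in the first set, though they are paralogues of Mrps18c, which fell in the second. Mrps36 and Mrpl55 of the large subunit (0.17, not called) were assigned no origin and are left out of this split. Within the large subunit the counts were 12 of 17 for the mitochondrial kind (median 0.43) and 16 of 27 for the bacterial kind (median 0.37). Within the small subunit they were 6 of 10 (median 0.39) and 3 of 15 (median 0.21). The small subunit proteins of the bacterial kind thus had the lowest share of calls, the 3 being Mrps15, Mrps21 and Mrps28. These counts depend on the cluster used for each gene. In Mrps16 of this set and in Mrps18b, also of the small subunit, the cluster not used was raised. Those not used of Mrpl10 and Mrpl12 in the large subunit were not called. No test of these differences between groups of members was made.

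At the stalk that receives the elongation factors, 3 members were measured and all were raised. Mrpl12, whose copies form the mobile arms, read 6.80, 6.93, 7.19 and 7.16 on digested arrays and 6.26, 6.32, 6.41 and 6.29 on undigested arrays, a difference of 0.70 ± 0.10 (limma adjusted p 0.0026). Mrpl10, which holds Mrpl12 to the body, read 7.90, 7.84, 7.87 and 8.08 on digested arrays and 7.50, 7.50, 7.63 and 7.48 on undigested arrays (0.40 ± 0.08). Mrpl11, at the stalk base, ran from 6.67 to 6.95 on digested arrays and from 6.35 to 6.62 on undigested arrays (0.37 ± 0.09, limma adjusted p 0.024). None of the 3 overlapped between groups. With undigested arrays 1 and 2 left out, Mrpl12 kept its call (limma adjusted p 0.032) and Mrpl10 (0.086) and Mrpl11 (0.084) lost theirs. The call on Mrpl11 was lost without undigested array 1 or 3 or digested array 1, 2 or 4, with an adjusted p of up to 0.065 and differences between 0.32 and 0.42.

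Mrps12, the protein of the decoding centre, read 6.59, 6.71, 6.71 and 6.59 on digested arrays and 6.46, 6.52, 6.36 and 6.16 on undigested arrays. Its groups did not overlap, yet the difference of 0.27 ± 0.10 was not called (limma adjusted p 0.071). Mrpl45, which anchors the large subunit to the inner membrane at the tunnel exit, had a difference of 0.30 ± 0.09 just outside the threshold (adjusted p 0.051), and Mrpl22, which lines the tunnel, 0.41 ± 0.13 (adjusted p 0.053). Just inside it were Mrps18a (0.32, adjusted p 0.050) and Mrpl51 (0.41, adjusted p 0.047). Calls near the threshold turned on single arrays and on the processing. Mrps18a was lost without undigested array 1 or 2 or any one digested array (adjusted p up to 0.13), and Mrpl51 without undigested array 1, 2 or 4 or digested array 2, 3 or 4 (up to 0.12). Mrpl45 was gained without digested array 2, at a difference of 0.36, and Mrpl22 without digested array 2 or undigested array 3, at 0.51 and 0.48. Mrps18a was also lost with no filter, the replicate block and the methods' t-test (adjusted p 0.071 to 0.073), and Mrpl51 with no filter and the methods' t-test. Mrpl45 and Mrpl22 were gained under median and endothelial centring, a second quantile normalization, array weights and the replicate block, and Mrps12 under endothelial centring, the second quantile normalization (0.047) and a stricter filter (0.046), as was Mrpl45 under the last.

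The 3 paralogues named Mrps18 sit in different places, Mrps18a in the large subunit and Mrps18b and Mrps18c in the small subunit. Mrps18a read 7.56, 7.74, 7.64 and 7.62 on digested arrays and 7.15, 7.19, 7.47 and 7.47 on undigested arrays. Mrps18b ran from 7.37 to 7.50 on digested arrays and from 7.19 to 7.30 on undigested arrays, without overlap but also without a call (0.17, adjusted p 0.13). Mrps18c overlapped, from 5.43 to 5.84 on digested arrays and from 5.54 to 5.67 on undigested arrays (-0.06, adjusted p 0.75). Whether the 3 differ from one another in their response was not tested.

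Not every member shared the shift. Mrpl24, the member with the brightest signal, read 8.71, 8.67, 8.57 and 8.61 on digested arrays and 8.59, 8.63, 8.47 and 8.62 on undigested arrays, an overlap of the groups (0.06, 95% interval -0.11 to 0.23). Mrpl39 likewise overlapped (0.00, 95% interval -0.17 to 0.18). The other members among the 5 brightest were Mrpl58, Mrps15 (0.50) and Mrpl52 (0.49), all raised, though Mrps15 (limma adjusted p 0.054) and Mrpl52 (0.069) were not called with undigested arrays 1 and 2 left out. Mrps14, a protein of the small subunit head, went the other way. It read 5.44, 4.98, 4.89 and 5.46 on digested arrays and 5.53, 5.48, 5.47 and 5.83 on undigested arrays. The groups were only narrowly separated, and digested arrays 2 and 3 were the low ones, for a difference of -0.39 ± 0.15 that did not pass (limma adjusted p 0.10). Mrps14, Mrpl27 (0.15) and Mrps36 were the 3 members with the dimmest signal. Signals of different probe sets set no order of transcript abundance between genes. Across the 71 members, difference and signal had a Spearman correlation of 0.04, over genes measured on the same 8 arrays, and the median within-group SD was 0.13, against 0.14 for all genes.

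Among the members, 9 had 2 clusters. In Mrps16 and Mrps18b the cluster not used was raised (0.48, adjusted p 0.013, and 0.46, adjusted p 0.0059) while the brighter one used here was not (0.04 and 0.17). The second cluster of Mrpl12 gave 0.22 and that of Mrpl10 0.01, neither called. Signs disagreed for Mrps18c (-0.06 and 0.10) and Mrps5 (0.07 and -0.17), all uncalled.

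The genes of the members are short. Their RefSeq span had a median of 7749 bp, against 20593 bp for all genes tested, and 62 of the 71 were no longer than that median of all genes. Up to 7699 bp, 20 of 35 members were raised, against 15.2% of all genes of that span. From 7702 to 20593 bp, 12 of 27 were raised, against 15.8% of all genes. From 20594 to 52854 bp, 3 of 4 were raised, against 14.6% of all genes. Of the 5 members with a longer span, 2 were raised, against 11.9% of all genes. Whether span bears on the differences was not tested.

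Many members also lie head to head with another gene, their starts less than 1000 bp apart on opposite strands: 37.1% of the 62 with a promoter, against 17% of all genes. Mrps11 of the small and Mrpl46 of the large subunit start 42 bp apart, and the 41 bases between them, at chr7:78783090-78783130 (+), shown because both flanking genes are members, hold none of the 3 cores.
Mrps11/Mrpl46: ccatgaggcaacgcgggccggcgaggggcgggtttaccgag
Neither was called (0.24 and 0.12). Of the 10 raised members with such a neighbour, 9 had a measured one and 5 of these neighbours were raised. They were Fau beside Mrpl49 (0.54, a cytosolic ribosomal protein gene), Cyb5rl beside Mrpl37 (0.46), Psma2 beside Mrpl32 (0.39, a proteasome subunit), Tmem63b beside Mrpl14 (0.38) and Tcp1 beside Mrpl18 (0.37, a chaperonin subunit). Of the 13 uncalled members with a neighbour, 12 had a measured one and 1 of these was raised, Ndufb5 beside Mrpl47 (0.56, a complex I subunit). None of the neighbours was lowered by limma. Of all genes tested, 14.4% were raised and 9.04% lowered. The counts of neighbours rest on 9 and 12 genes, and no test was made of them. Among these members the call on Mrpl18 was lost without undigested array 2 (adjusted p 0.054), and that on Mrpl32 without undigested array 1, 2 or 3 or digested array 1, 3 or 4 (up to 0.11).

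The other genes of mitochondrial translation were measured on the same 8 arrays. Of the 3 proteins of the ribosome under other names, none was called: Gadd45gip1 was at 0.31 (adjusted p 0.068), Dap3 at 0.09 and Ptcd3 at -0.35 (adjusted p 0.47), the last ranging from 8.26 to 9.93 on the undigested arrays alone. Of 27 assembly factors 3 were raised and 0 lowered, with a median of 0.10. C1qbp, an acidic matrix protein needed for mitochondrial translation, read 8.11, 7.86, 8.12 and 8.07 on digested arrays and 7.35, 7.16, 7.23 and 7.32 on undigested arrays (0.78 ± 0.09). The others were the GTPase Gtpbp10 (0.46) and the inner membrane protein Mpv17l2 (0.43). Of 14 translation factors 3 were raised and 0 lowered, with a median of 0.04: the elongation factors Tufm (0.37) and Gfm1 (0.31), and Oxa1l, the insertase that receives new chains (0.27). Of 19 genes listed under mitochondrial aminoacyl-tRNA synthetases 2 were raised and 0 lowered (median 0.11). They were Fars2 (0.66) and Gatc (0.35), the latter a subunit of a tRNA amidotransferase and not a synthetase. The shares raised were 11.1% of the assembly factors, 21.4% of the translation factors and 10.5% of the synthetase list, against 14.4% of all genes tested. Whether these lists differ from the ribosomal proteins was not tested.

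The mitochondrially encoded messages are the ribosome's own templates. None of the 10 measured was called by limma, with differences from -0.07 to 0.04. ND4, a complex I subunit and the brightest, ran from 13.38 to 13.39 on digested arrays and from 13.37 to 13.43 on undigested arrays. Such signals lie close to the top of the array's range, and the part of this in the small differences was not tested. Among nuclear genes, 63 of 75 for oxidative phosphorylation subunits were raised and 0 lowered, with a median of 0.65, led by the cytochrome oxidase subunit gene Cox8b (2.61). Among import, porin and matrix genes 15 of 19 were raised (median 0.36), with the ADP/ATP carrier Slc25a5 (0.90) and the porin Vdac1 (0.77) foremost. Of 53 cytosolic ribosomal protein genes 27 were raised (median 0.31), among them Rps13 (0.85). The shares over all genes tested were 14.4% raised and 9.04% lowered.

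Of 13 regulators of mitochondrial gene expression 1 was raised (7.69%, against 14.4% of all genes tested): Ppargc1a, the coactivator of mitochondrial biogenesis. It read 8.82, 8.50, 8.96 and 9.03 on digested arrays and 7.64, 7.80, 8.23 and 8.33 on undigested arrays, without overlap (0.83 ± 0.18, limma adjusted p 0.012). The factors whose cores are printed above were not called: Nrf1 was at -0.25 (adjusted p 0.090), Gabpa at 0.03 (adjusted p 0.81) and Yy1 at 0.16 (adjusted p 0.20).

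**Figure D4:**
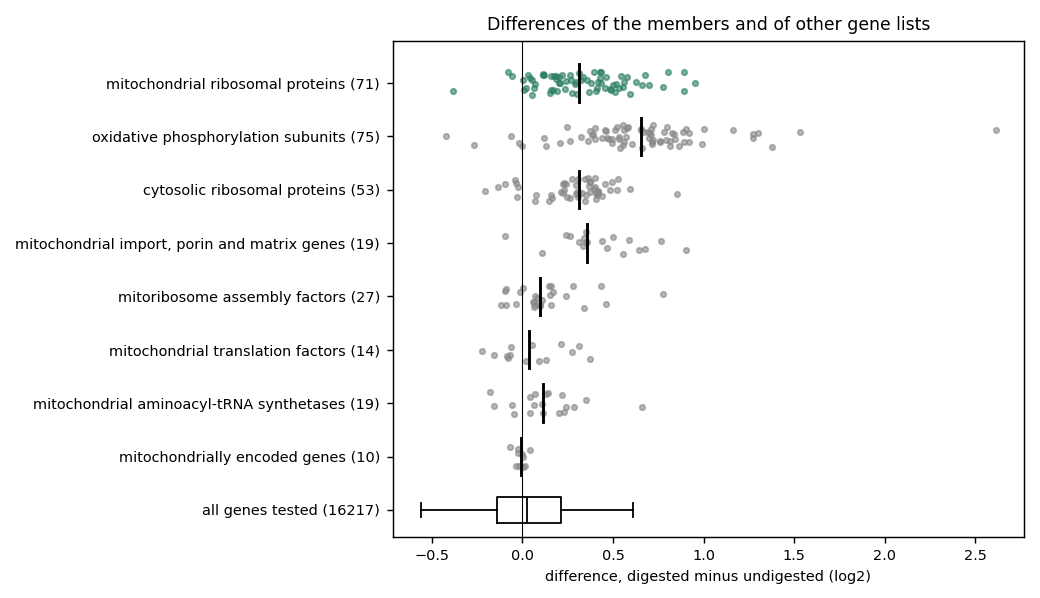
Difference between digested and undigested vessels (log2, x axis) for each gene of the members and of 7 other lists, with the list's median as a bar and the number of genes in brackets; the box gives all genes tested (middle 50%, whiskers from the 5th to the 95th percentile). The members' median of 0.31 lies beside that of the cytosolic ribosomal proteins (0.31), under that of the oxidative phosphorylation subunits (0.65) and above that of all genes (0.02).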

How the data were processed

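The series holds Affymetrix Mouse Gene 2.0 arrays, 4 digested and 4 undigested. The authors name Expression Console, EASANA with FAST DB annotation, antigenomic background correction and quantile normalization. The table the authors deposited gives log2 levels, 1 per cluster on each array; whether it had that normalization is not stated, and the log2 scale was read from its range. Array medians ran from 5.58 to 5.71.

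Symbols came from the platform table: of 41345 clusters, 23521 had 1 symbol, 1820 several and 16004 none. As floor served the level under which 90% of 1400 clusters of olfactory or vomeronasal receptors lay, which kept 27658 clusters. Differences, digested minus undigested, were tested by limma 3.58.1 under R 4.3.3 (two-sided, lmFit then eBayes, without covariates) with Benjamini-Hochberg adjustment over all kept clusters. The number of arrays limits the precision. The steps were tested on simulated data. Alternatives were scaling, filter, variance model, array weights, the replicate block, the methods' t-test and left-out arrays.

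The members and gene lists were chosen with earlier results of these data known. Named were the 10 most raised members, those with extreme signal, those of chosen sites, those with disagreeing clusters and those beside the threshold, and of other lists the most changed calls. Promoters and neighbours shown were chosen after their values were seen. Promoter and span data are from RefSeq (GRCm38.p6); Mrpl4, Mrpl13, Mrpl15, Mrpl19, Mrpl38, Mrpl54, Mrps28, Mrps34 and Mrps35 were not matched to a promoter. Figures used Python 3.11.15, pandas 2.3.3 and matplotlib 3.10.9.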

Additional observations from a re-analysis of the deposited data

Results flagged for a closer look

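In 56 groups of 4 arrays of the named members, 2 held an array far from the other 3; by chance about 1 in 20 groups would. Mrps15 on digested array 4 read 8.46, against 8.12 to 8.17 on the other digested arrays, a gap of 0.866 of the group's range. Mrps18c on digested array 3 read 5.84, against 5.43 to 5.48 on the other digested arrays, a gap of 0.874 of the range.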

How the results depend on the processing

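The count of 37 raised members stayed within 1.5 times under median centring (41), a second quantile normalization (41), no filter on low signal (30), a stricter one (33 of 55 members left), a trended robust variance (34), array weights (39) and the methods' t-test (33), and ran from 26 to 34 when 1 array was left out. It became 70 when arrays were centred on the endothelial markers, a scaling that moved the median of all genes to 0.52, made 73.0% of them raised and gave the members a median difference of 0.81 and 69 members without overlap, in place of 44. Both centrings shift every gene alike, so the members' distance from all genes cannot change under them (0.29); with the second quantile normalization it was 0.28. The count of raised members became 12 with undigested arrays 1 and 2 left out. The median difference of the members ran from 0.29 to 0.36 when 1 array was left out, and was 0.30 from arrays numbered 1 and 2 and 0.35 from arrays numbered 3 and 4. Of the 37 raised members, 24 were called in every fit without 1 array and 11 in all 19 alternatives with a test.

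With a replicate block 33 members were raised and 1, Mrps14, was lowered. The numbers were not taken to pair the arrays, since same-numbered arrays had correlated deviations of 0.06, 0.18, -0.04 and 0.18. Over all alternatives and the number pairs, 13 members changed sign and 0 of them had been called by limma. Endothelial centring gave Mrps14 0.11, Mrps18c 0.44, Mrpl1 0.42 and the mitochondrially encoded genes a median of 0.48; median centring gave these genes 0.019; the second quantile normalization gave Mrpl39 -0.028 and Mrps18c 0.038. Without undigested arrays 1 and 2, Mrpl39 was at -0.039 and Mrps16 at -0.040. From arrays numbered 3 and 4 only, Mrpl39 was at -0.042, Mrps16 at -0.043, Mrpl3 at -0.0035 and Mrps18c at 0.012, and from arrays numbered 1 and 2 only Mrps36 was at -0.031. Mrpl3 was at -0.0073 without undigested array 4. Without 1 array Mrpl39 ran from -0.029 to 0.038 and Mrps36 from -0.019 to 0.24. The cause of these changes was not tested. Mrps36, the dimmest member, lay closest to the floor, but Mrpl39, which also changed sign, ranked 4 of 71 in signal.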
